A study of Mus musculus with 2 samples.

Results

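The tubulin isotypes described here are 10 genes taken by symbol from the annotation, 3 that encode alpha tubulins (Tuba1a, Tuba1b and Tuba4a) and 7 that encode beta tubulins (Tubb2a, Tubb2b, Tubb3, Tubb4a, Tubb4b, Tubb5 and Tubb6), out of 55536 annotated genes. All 10 symbols were found, and all 10 had a mean expected count of at least 10. They were measured by total RNA sequencing of cortex from the left cerebral hemisphere of male mice aged 25 days. The strain, B6CASTF1/J, is the F1 hybrid between C57BL/6J and CAST/EiJ. The labels give 1 group of 2 libraries, replicate 2 and replicate 1, each made from 300 ng of RNA, with no treatment and no contrast between conditions. The labels number the libraries as biological replicates, and their biobank numbers, 4 and 3, differ. Both libraries carry the same donor entry, however. That they come from separate animals is assumed here, so the spread between them may in part be technical. Values are in TPM, a unit in which counts are divided by transcript length and scaled to the whole library, given as mean ± SD over the 2 libraries (n = 2). No test was possible in 1 group of 2, so every difference below compares 1 library with 1 library and carries no p-value.

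Alpha and beta tubulins join in pairs, and the pairs polymerise into microtubules, the tracks for transport and the scaffold of axons and dendrites. Vertebrates have several genes for each, called isotypes, whose proteins differ mostly in a short acidic tail at the carboxyl end, where enzymes add or remove glutamate, glycine or a final tyrosine. Free tubulin also limits its own synthesis: the factor TTC5 binds the first residues of nascent tubulin at the ribosome and leads to decay of the messenger RNA. In brain, Tuba1a, Tubb2a, Tubb2b and Tubb3 are known as isotypes of neurons, Tubb4a is found in neurons and in myelinating cells, and Tuba1b, Tubb4b and Tubb5 are expressed in many tissues.

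The coding ends are shown because they are the part in which the isotypes diverge, and because near-identical sequence limits how reads can be split between genes. Each is the last 75 bases of the coding sequence with the stop codon, 5′ to 3′ on the coding strand of mm10, read from the GENCODE M21 transcripts. The reference is C57BL/6J, and alleles of the CAST/EiJ parent are not shown. They are given for beta genes, and capitals mark bases that differ from Tubb2a in an alignment of the coding sequences.
Tubb2a: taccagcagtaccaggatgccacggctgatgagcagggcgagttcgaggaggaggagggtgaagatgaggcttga
Tubb2b: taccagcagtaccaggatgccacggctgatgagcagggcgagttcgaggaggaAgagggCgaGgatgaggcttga
Tubb3: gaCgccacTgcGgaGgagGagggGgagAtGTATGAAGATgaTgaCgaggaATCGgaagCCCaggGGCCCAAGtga
Tubb4a: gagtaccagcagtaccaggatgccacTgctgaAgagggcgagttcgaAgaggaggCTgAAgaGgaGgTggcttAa
Tubb4b: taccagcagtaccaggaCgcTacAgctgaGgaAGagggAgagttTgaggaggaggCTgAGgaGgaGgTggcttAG
Tubb5: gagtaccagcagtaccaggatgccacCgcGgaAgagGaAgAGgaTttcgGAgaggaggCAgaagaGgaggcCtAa
Tubb2b differed from Tubb2a at 3 of the 75 bases, Tubb4a at 11, Tubb5 at 15, Tubb4b at 17 and Tubb3 at 34. Bases with no counterpart in Tubb2a count as differing, as in Tubb3, whose coding sequence is longer. Bases of Tubb2a that another gene lacks, as in the shorter Tubb4a and Tubb5, are neither marked nor counted. The other end of the coding sequence, the first 12 bases that encode the residues read by TTC5, differed at 0 to 3 bases from the first gene of each class and is shown for 4 members, with capitals for differences from Tuba1a in the alpha genes and from Tubb2a in the beta genes.
Tuba1a: atgcgtgagtgc
Tuba4a: atgcgCgagtgc
Tubb2a: atgcgcgagatc
Tubb5: atgAgGgaAatc
Tuba1b had the same 12 bases as Tuba1a, and the other beta genes with coding ends shown above differed from Tubb2a at 1 to 3 of them.

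The genes were alike in structure. The reference transcript of every member had 4 exons, and the coding sequence ran from 444 codons (Tubb4a and Tubb5) to 451 codons (Tuba1a and Tuba1b). For Tuba4a it was Tuba4a-202, a minor transcript, because the main one, Tuba4a-201, has no annotated start codon. The 3′ untranslated region varied, from 148 bases in Tubb4b to 1061 bases in Tubb5, and for Tuba4a it was 650 bases in Tuba4a-201 and 1394 bases in Tuba4a-202. Coding identity was 84.7% to 98.3% between the alpha genes, 80.2% to 96.5% between the beta genes and 52.3% to 55.1% between an alpha and a beta gene. The closest pairs were neighbours on the chromosome. Tuba1a (chr15:98949837-98953703, minus strand) and Tuba1b (chr15:98931425-98934565, minus strand) lay 15.271 kb apart, with another alpha gene, Tuba1c, 76.187 kb from Tuba1a. Tubb2a (chr13:34074274-34078007, minus strand) and Tubb2b (chr13:34126748-34130466, minus strand) lay 48.74 kb apart and were 96.5% identical in coding sequence. The other members stood on chromosomes 1 (Tuba4a), 8 (Tubb3), 2 (Tubb4b), 17 (Tubb4a and Tubb5) and 18 (Tubb6).

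Tuba1b had the largest share of sequence in common with other genes: 69.5% of its 100-base windows, and 90.9% of those inside the coding sequence, occurred unchanged in a transcript of another gene. For Tuba1a the shares were 65.1% and 80.4%. The windows of Tuba1a and Tuba1b were shared with each other (448 windows), with Tuba1c (594 of Tuba1a and 799 of Tuba1b), with processed pseudogenes, which are inactive copies of spliced messenger RNA, and with Gm49450, annotated as protein coding on chromosome 15 (531 of Tuba1a and 530 of Tuba1b), which had 0 counts in both files. Tubb2a shared 36.9% of its windows and Tubb2b 27.7%, almost all with each other (543 windows), and Tubb4b shared 29.2%, mainly with the pseudogene Tubb4b-ps1 (411 windows). Tuba4a, Tubb3, Tubb4a, Tubb5 and Tubb6 shared 0 windows with any other gene, and Tuba4a-201 also shared 0. The levels of Tuba1a, Tuba1b, Tubb2a, Tubb2b and Tubb4b therefore depend on how reads were split between copies and are less certain than their counts alone would make them. The posterior SD that the authors deposited with each count was 0.93% and 0.99% of the count for Tuba1b in replicate 2 and replicate 1, 0.84% and 1.00% for Tubb2b, 0.37% and 0.40% for Tuba1a, and 0 for Tuba4a, Tubb3, Tubb5 and Tubb6.

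**Figure D1:**
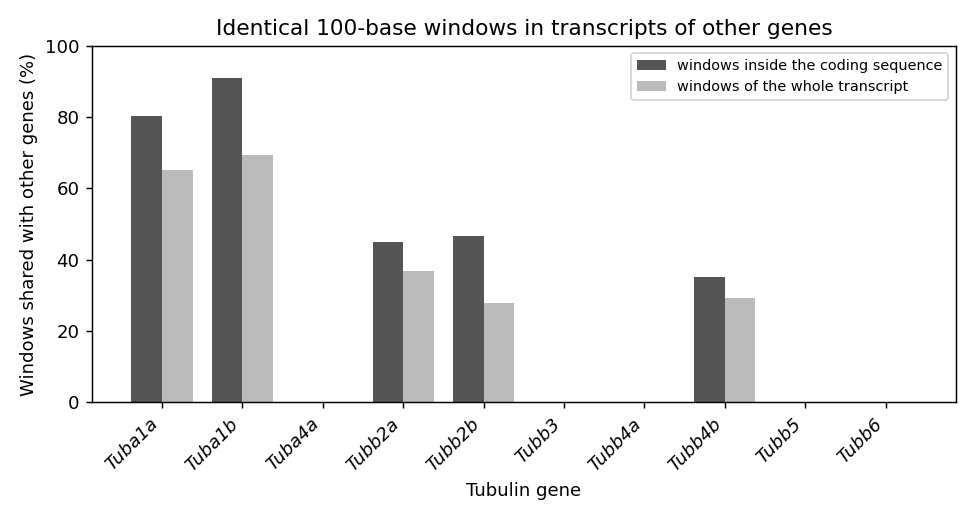
Share of each gene's 100-base windows, in percent, that occur unchanged in a transcript of another gene, for windows inside the coding sequence (dark bars) and for the whole reference transcript (light bars). Tuba1b stands highest at 90.9% and 69.5%, and Tuba4a, Tubb3, Tubb4a, Tubb5 and Tubb6 are at 0.

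Tubulin messenger RNA was abundant, with Tuba1a and Tubb2a the highest members and Tubb6 almost absent. Of the 10 members, 9 reached 1 TPM in both libraries of the gene table, as did 14744 of all genes, and the 10 together made up 0.54% ± 0.024 of the TPM of protein-coding genes outside the mitochondrial genome. In bulk tissue, fewer cells of a type and less RNA per cell cannot be told apart.

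Tuba1a, the main alpha tubulin of developing and postmitotic neurons, had 496.6 TPM in replicate 2 and 484.0 TPM in replicate 1, or 490.3 ± 8.92 TPM, from 19054 and 16599 expected counts. It ranked 59 among 22015 protein-coding genes. Tuba4a, known to be encoded without the final tyrosine of the other alpha tubulins, had 297.9 TPM in replicate 2 and 280.1 TPM in replicate 1 (289.0 ± 12.5 TPM), rank 159. Tuba1b had 253.5 and 252.3 TPM in replicate 2 and replicate 1 (252.9 ± 0.905 TPM), rank 215. The ranges of the 3 alpha genes did not overlap in the gene table.

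Of the beta genes, Tubb2a had 491.6 TPM in replicate 2 and 450.8 TPM in replicate 1 (471.2 ± 28.9 TPM), rank 61. Its close copy Tubb2b, which is linked in humans to malformations of the cortex, had 93.27 TPM in replicate 2 and 85.40 TPM in replicate 1 (89.3 ± 5.56 TPM), rank 1079. Tubb3, the beta tubulin used as a marker of neurons, had 195.3 TPM in replicate 2 and 181.7 TPM in replicate 1 (188.5 ± 9.64 TPM), rank 351. The neuronal marker isotype thus stood between the Tubb2 copies in level.

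Tubb4a, mutated in human leukodystrophy, had 280.0 TPM in replicate 2 and 275.9 TPM in replicate 1 (277.9 ± 2.93 TPM), rank 182. Tubb5 had 228.1 TPM in replicate 2 and 213.1 TPM in replicate 1 (220.6 ± 10.7 TPM), rank 266. Tubb4b, a main beta tubulin of cilia, had 173.8 TPM in replicate 2 and 166.2 TPM in replicate 1 (170.0 ± 5.40 TPM), rank 416. Tubb6 stood far below the rest, with 0.94 and 1.08 TPM in replicate 2 and replicate 1 (1.01 ± 0.099 TPM), from 35 and 36 expected counts, rank 13005.

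In the order of levels, some neighbours did not differ beyond their spread. Tuba1a and Tubb2a were 19.1 TPM apart with ranges that overlapped, and Tuba4a and Tubb4a were 11.1 TPM apart, less than the sum of their SDs (15.5 TPM). Every other pair of neighbours in the gene table was farther apart than the sum of its SDs. In the second transcript file, which holds another estimate from the same libraries, the order was Tuba1a, Tuba4a, Tubb2a, Tuba1b, Tubb4a, Tubb5, Tubb3, Tubb4b, Tubb2b and Tubb6. There the ranges of Tuba4a and Tubb2a overlapped, and so did those of Tubb4a and Tubb5. In both files Tuba1a was highest and Tubb3, Tubb4b, Tubb2b and Tubb6 held the last 4 places in that order.

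**Figure D2:**
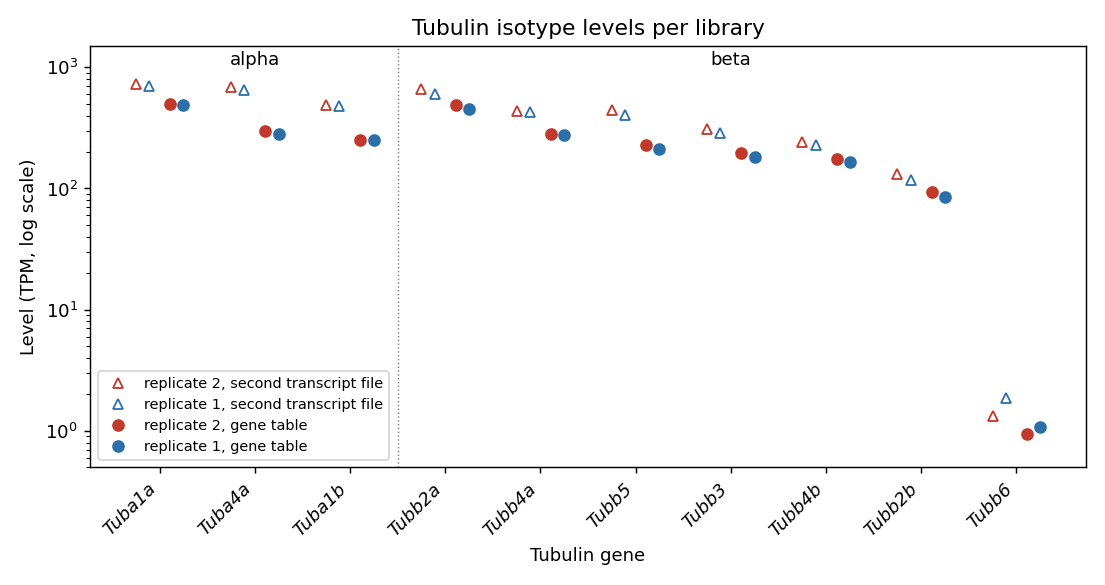
Level of each gene in TPM on a log axis, with alpha genes left of the dotted line and beta genes right of it. Triangles are gene sums of the second transcript file and dots the gene table, each with replicate 2 (red) left of replicate 1 (blue). Of the 10 genes, 9 lie between 85.4 and 733 TPM, and Tubb6 lies near 1 TPM.

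The alpha members summed to 1048.0 TPM in replicate 2 and 1016.4 TPM in replicate 1 (1032 ± 22.4 TPM), and the beta members to 1463.0 TPM in replicate 2 and 1374.0 TPM in replicate 1 (1418 ± 63.0 TPM). The members held 96.5% of the TPM of annotated genes with a Tuba symbol and 99.1% of that of genes with a Tubb symbol. The beta total includes pseudogenes with a Tubb symbol, while the alpha total leaves out alpha pseudogenes, which have Gm names. The 2 shares are thus not alike. The log2 ratio of the alpha sum over the beta sum was -0.20 ± 0.03 in the second transcript file and -0.46 ± 0.03 in the gene table, so the alpha sum was below the beta sum in both files.

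In the gene table Tuba1a made up 47.5% ± 0.17 of the alpha sum, Tuba4a 28.0% ± 0.61 and Tuba1b 24.5% ± 0.44. Tubb2a made up 33.2% ± 0.56 of the beta sum, Tubb4a 19.6% ± 0.66, Tubb5 15.5% ± 0.06, Tubb3 13.3% ± 0.09, Tubb4b 11.99% ± 0.15, Tubb2b 6.30% ± 0.11 and Tubb6 0.071% ± 0.010. The shares were close between the libraries, with no SD above 0.66 percentage points. They moved more between the files than between the libraries for some members: Tuba4a made up 35.7% of the alpha sum in the second transcript file against 28.0% in the gene table, Tuba1a 38.4% against 47.5%, and Tubb5 19.6% of the beta sum against 15.5%.

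**Figure D3:**
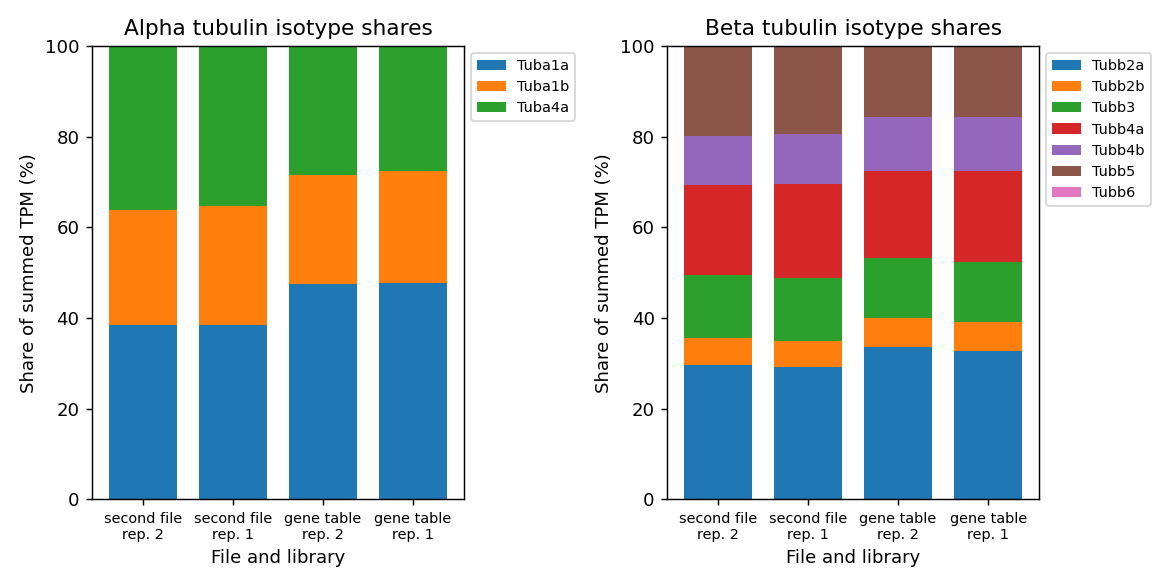
Share of each member in the summed TPM of its class, in percent, for alpha genes (left panel) and beta genes (right panel). Bars are the second transcript file and the gene table, each with replicate 2 left of replicate 1. The shares differ little between the libraries, and Tuba1a makes up 38.4% of the alpha sum in the second file and 47.5% in the gene table.

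Ratios between pairs of isotypes are free of the scaling of each library. Tubb2a stood 4.97-fold above Tubb2b in replicate 2 and 5.21-fold in replicate 1 in the second transcript file (log2 2.35 ± 0.05), against 5.27-fold and 5.28-fold in the gene table (log2 2.40). In the gene table Tubb4a stood 1.61-fold above Tubb4b in replicate 2 and 1.66-fold above it in replicate 1 (log2 0.71 ± 0.03). Tubb3 stood 2.09-fold above Tubb2b in replicate 2 and 2.13-fold in replicate 1 (log2 1.08 ± 0.02). These ratios of neuronal and brain isotypes kept their direction in both files.

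Against Tubb5, the beta tubulin of most tissues, Tubb3 had a log2 ratio of -0.49 in the second transcript file and -0.23 in the gene table. Tubb5 over Tubb2a was -0.59 ± 0.01 in the second file and -1.09 ± 0.02 in the gene table, and Tubb6 over Tubb5 was -8.06 ± 0.45 in the second file and -7.77 ± 0.21 in the gene table. Tubb4a over Tubb2b was 1.80 ± 0.11 in the second file and 1.64 ± 0.07 in the gene table. Tuba1a over Tuba1b was 0.57 ± 0.03 in the second file and 0.96 ± 0.02 in the gene table, where Tuba1a was 1.96-fold and 1.92-fold above Tuba1b in replicate 2 and replicate 1. Tuba1a over Tuba4a depended most on the file among the alpha pairs: Tuba1a was 1.06-fold and 1.09-fold above Tuba4a in the second file in replicate 2 and replicate 1, against 1.67-fold and 1.73-fold in the gene table.

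The second transcript file gave higher TPM than the gene table for most genes, with a median log2 of 0.60 in replicate 2 and 0.59 in replicate 1. Small RNAs of the 7SL and 7SK kind took 0.00041% and 0.00019% of the TPM of the second file in replicate 2 and replicate 1, and 33.7% and 33.3% of that of the gene table. Relative to that median, 3 members were over 1.2-fold higher in the second file in both libraries, where 13.7% of all genes tested were. They were Tuba4a (0.61 and 0.62 in replicate 2 and replicate 1), Tubb5 (0.35 and 0.32) and Tuba1b (0.34 in both). No member was over 1.2-fold lower, where 9.76% of all genes were.

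On counts scaled to their totals, which are not divided by transcript length, the picture was another. Tuba4a differed by 0.01 in both libraries and Tubb5 by -0.08 and -0.09, so the difference in TPM was not seen in the counts. No member was over 1.2-fold higher on this scale, where 5.25% of all genes were. Tubb2a (-0.31 and -0.30 in replicate 2 and replicate 1), Tubb2b (-0.33 and -0.34) and Tubb4b (-0.27 in both) were over 1.2-fold lower, where 6.55% of all genes were. Tuba1a differed by -0.14 and -0.15 and Tubb6 by -0.27 and -0.07, while Tuba1b was higher in the second file by 0.22 and 0.23 on counts as well.

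Of the pseudogene copies of Tuba1a and Tuba1b, Gm14150 took very different counts in the files. It lies on chromosome 2, shares 523 windows with Tuba1b and 174 with Tuba1a, and had 34.2 and 29.5 estimated counts in the second file in replicate 2 and replicate 1, against 3647 and 3202 expected counts in the gene table. In TPM it stood at 1.96 and 1.89 in the second file, against 129.1 and 126.8 in the gene table. The files were closer for Gm3226, on chromosome 13, which had 2086 and 1677 counts in the second file and 2309 and 1966 in the gene table. Over all 8 processed pseudogenes that share windows with Tuba1a or Tuba1b, the second file held 2400 and 1986 counts in replicate 2 and replicate 1, against 6616 and 5747 in the gene table.

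Tuba1b had 11642 and 10367 counts in the second file in replicate 2 and replicate 1, against 9346 and 8305 in the gene table. The sum of Tuba1a, Tuba1b and the 10 other genes that share windows with them was 33831 and 29377 counts in the second file, against 36505 and 31824 in the gene table. With the sharing genes added, the alpha sum was 1297 ± 30.1 TPM in the gene table, the beta sum 1433 ± 64.7 TPM, and the log2 ratio of alpha over beta -0.14 ± 0.03. How far the reads of the pseudogenes come from the pseudogenes themselves was not tested. Of the beta pseudogenes, Tubb4b-ps1 had 27.9 and 24.4 TPM in the second file and 12.7 and 10.8 TPM in the gene table in replicate 2 and replicate 1, and Tubb2a-ps2 had 9.02 and 8.74 TPM in the second file and 0.83 and 0.88 TPM in the gene table.

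Transcript shares of Tuba4a and Tubb5 differed between the transcript files. Tuba1a, Tubb2a and Tubb4a have 1 annotated transcript each, and the other 7 members have at least 2. An isoform was over 20 percentage points apart between the transcript files in both libraries for 2 of the 6 that reached 1 TPM (all but Tubb6), against 26.8% of 12063 genes, a share near that over all genes. The shares are of a gene's TPM, in which a short transcript weighs more per read.

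Tuba4a-201, a coding transcript of 2083 bases, made up 43.4% ± 1.56 of the gene in the second transcript file and 86.4% ± 3.09 in the first. Tuba4a-203, of 782 bases, made up 30.4% ± 0.15 in the second file and 0.48% ± 0.05 in the first, and Tuba4a-206, of 1205 bases, 24.7% ± 1.29 and 4.72% ± 1.71. Tuba4a-207, of 346 bases, was listed at 0 in the second file and made up 3.89% ± 0.96 in the first. As shares of estimated counts in the second file, Tuba4a-201 held 67.1% ± 1.83 and Tuba4a-203 11.9% ± 0.23.

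Tubb5-201, the full-length coding transcript of 2649 bases, made up 63.3% ± 0.13 in the second file and 94.4% ± 1.30 in the first. The rest was mostly Tubb5-204, annotated as a retained intron of 979 bases, with 36.0% ± 0.24 in the second file and 4.54% ± 1.01 in the first. As a share of counts in the second file Tubb5-204 held 13.5% ± 0.15. The libraries were alike within each file, so the difference followed the file and not the library.

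The remaining members were dominated by their coding transcript in both files. Tubb2b-202, a noncoding transcript of 430 bases, made up 13.5% ± 0.01 in the second file and 3.02% ± 1.72 in the first, on 38.1 and 29.8 counts in replicate 2 and replicate 1 of the second file. Tubb3-202 was at 0.17% in replicate 2 and 4.40% in replicate 1 of the second file, on 3.93 and 85.2 counts. The minor transcripts of Tuba1b and Tubb4b stayed under 5% in all 4 tables. Tubb6-202, a retained intron, made up 17.5% ± 1.17 in the second file on 2.17 and 3.01 counts, too few for a share, and was listed at 0 in the first.

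**Figure D4:**
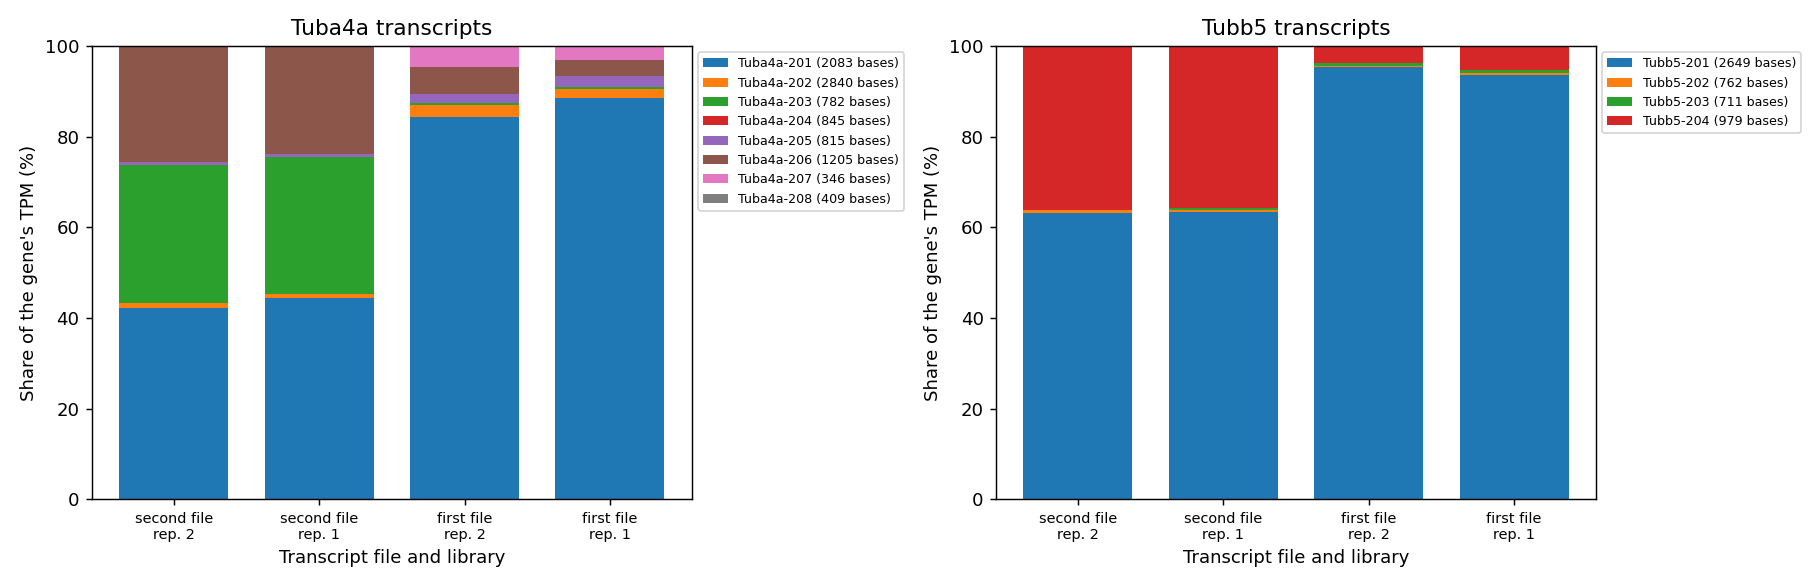
Share of each annotated transcript in the TPM of Tuba4a (left panel) and Tubb5 (right panel), in percent. Bars are the second and the first transcript file, each with replicate 2 left of replicate 1. Tuba4a-201 makes up 43.4% in the second file and 86.4% in the first, and Tubb5-201 63.3% and 94.4%.

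The libraries differed little in tubulin. Of the 10 members, 9 were higher in replicate 2, where 41.5% of all 18136 genes tested were (52.0% on TMM-scaled counts and 80.0% with spike-in scaling), and Tubb6 was lower. The median log2 difference on TPM + 0.5, replicate 2 over replicate 1, was 0.08 over the members and -0.03 over all genes. No member was over 1.2-fold apart, where 7.45% of all genes were higher in replicate 2 and 12.5% lower by that much.

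Tubb2b (0.13), Tubb2a (0.12), Tubb3 (0.10) and Tubb5 (0.10) had the largest log2 differences upward, and Tuba1b (0.01), Tubb4a (0.02) and Tuba1a (0.04) the smallest. Tuba4a (0.09) and Tubb4b (0.06) lay between. Counts were also scaled by TMM, a trimmed mean of the log ratios of genes between the libraries. On these counts the 95% counting interval lay above 0 for the 9 members that were higher, where it did for 11.0% of all genes. It reached from 0.13 to 0.26 for Tubb2b and from 0.13 to 0.20 for Tubb2a. It covers counting error only, and members with high counts have narrow intervals. For Tubb6 it reached from -0.88 to 0.55, so no direction was detectable at this depth.

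**Figure D5:**
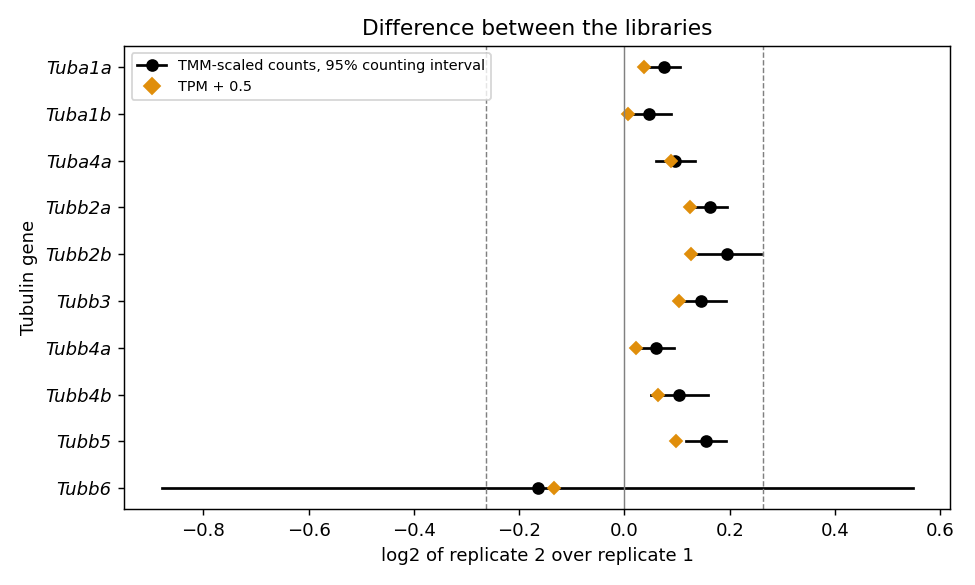
Log2 of replicate 2 over replicate 1 for each member, from TMM-scaled counts (black dots, with the 95% counting interval as a line) and from TPM + 0.5 (orange diamonds). Dashed lines mark a 1.2-fold difference. Of the 10 members, 9 lie above 0 and inside the dashed lines, and the interval of Tubb6 spans 0.

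The libraries also differed in markers of other cells, and the part of these in the tubulin differences was not tested. All 7 markers of mature oligodendrocytes, the myelinating cells in which Tubb4a is known to be expressed, were over 1.2-fold higher in replicate 2, with a sum of 1224 TPM in replicate 2 and 918.6 TPM in replicate 1 and a median log2 of 0.41, while Tubb4a differed by 0.02. Of 5 astrocyte markers none was over 1.2-fold apart: Slc1a2 (-0.18), Slc1a3 (-0.17) and Aldh1l1 (-0.20) were lower in replicate 2 and Gfap (0.17) and Aqp4 (0.01) higher on the log2 scale, and the list summed to 1064 TPM in replicate 2 and 1183 TPM in replicate 1. All 4 choroid plexus markers were higher in replicate 2 (summed 197.8 TPM in replicate 2 and 21.8 TPM in replicate 1), mostly through Ttr at 191.9 and 19.5 TPM. The 3 genes of red blood cells were all over 1.2-fold lower in replicate 2 (summed 482.0 TPM in replicate 2 and 715.3 TPM in replicate 1). The 5 neuronal markers summed to 2614 TPM in replicate 2 and 2669 TPM in replicate 1 and had a median log2 of -0.02, with none of the 5 higher in replicate 2. The 4 cortical identity genes were detected in both libraries, and the 3 markers of regions outside cortex stayed at 0.20 TPM or below.

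Other tubulin genes were low. Tuba1c had 33.1 ± 2.98 TPM, Tuba8 4.56 ± 0.11 TPM, and the gamma tubulins Tubg2 and Tubg1, which nucleate microtubules at centrosomes, 22.1 ± 1.19 and 19.9 ± 0.37 TPM. Tubd1 and Tube1, the delta and epsilon tubulins of centrioles, had 2.56 ± 0.35 and 0.81 ± 0.01 TPM. Tubb1, the beta tubulin of platelets, had 1 count in replicate 2 and 2 counts in replicate 1, and Tuba3a, Tuba3b and Tubal3 had 0 in the gene table. The deposited upper bounds there, of a level not given, were 0.092 and 0.103 TPM for Tuba3a in replicate 2 and replicate 1. They were 0.077 and 0.086 TPM for Tuba3b and 0.124 and 0.136 TPM for Tubal3. In the second file Tubal3 had 4.33 and 6.12 counts, or 0.091 and 0.14 TPM, in replicate 2 and replicate 1. Of the 6 genes of this list with enough counts to compare, none was over 1.2-fold apart between the libraries in the gene table, while in the second file Tubd1 (-0.31) and Tube1 (0.45) were.

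The machinery that folds tubulin was expressed throughout. All 21 folding genes were detected, with a median of 56.4 TPM, and 17 of them stood higher in replicate 2 (median log2 0.08), none over 1.2-fold, where 41.5% of all genes were higher. Pfdn5, a prefoldin subunit that hands nascent chains to the chaperonin, led with 167.8 ± 7.59 TPM, followed by the chaperonin subunits Cct7 (91.6 ± 2.85 TPM), Tcp1 (91.2 ± 1.00 TPM) and Cct5 (82.2 ± 5.36 TPM). Tbcc, a cofactor of dimer assembly, and Pfdn4 were lowest at 15.0 ± 1.45 and 13.0 ± 0.83 TPM. Ttc5, the reader of nascent tubulin, had 26.9 ± 1.36 TPM, and Scaper, its partner in messenger RNA decay, 13.4 ± 0.43 TPM.

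Enzymes that modify the tail ranged widely. Of the matched genes of the tyrosine cycle, Ttl, the ligase that restores the tyrosine, had 29.3 ± 0.83 TPM, the detyrosinase Vash1 16.1 ± 0.17 TPM, its partner Svbp 8.60 ± 0.62 TPM and Vash2 0.94 ± 0.13 TPM. Of 13 glutamylation and glycylation ligases 7 were detected, led by Ttll7, a glutamylase that acts on beta tubulin, at 78.7 ± 3.22 TPM, with Ttll1 (22.2 ± 0.16 TPM), Ttll5 (17.9 ± 0.05 TPM) and Ttll11 (15.8 ± 1.19 TPM) after it. Ttll6 had 1 count in replicate 2 and 2 in replicate 1, and Ttll2 had 0 in both. In the gene table Ttll13 was the only gene of that list over 1.2-fold lower in replicate 2. It had 0.46 TPM (15 counts) in replicate 2 and 0.75 TPM (21 counts) in replicate 1, and differed by -0.06 in the second file. No ligase tested was over 1.2-fold higher in the gene table, while in the second file Ttll8 (0.44) was. Ttll9 stood at the cut in the gene table (0.263), though its counts, 19 in replicate 2 and 24 in replicate 1, were lower in replicate 2.

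Of 6 deglutamylases 4 were detected. Agtpbp1, whose loss in mice leads to death of Purkinje cells, had 152.6 ± 5.56 TPM, above Agbl4 (9.63 ± 0.49 TPM), Agbl5 (6.88 ± 0.91 TPM) and Agbl3 (6.84 ± 0.67 TPM). Agbl2 was lower in replicate 2 by over 1.2-fold, on 7 counts in replicate 2 and 18 in replicate 1, and Agbl1 stood at 0.12 TPM in both libraries. All 3 acetylation genes were detected: the deacetylase Sirt2 at 63.8 ± 2.86 TPM, the acetyltransferase Atat1 at 22.3 ± 1.2 TPM and the deacetylase Hdac6 at 21.3 ± 0.97 TPM.

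Genes that control the assembly of microtubules were also present. All 4 stathmins, proteins that bind free tubulin dimers, were detected: Stmn1 had 467.7 ± 8.39 TPM, Stmn3 296.1 ± 6.72 TPM, Stmn2 256.4 ± 5.12 TPM and Stmn4 129.5 ± 2.65 TPM. Stmn1 and Tubb2a, at 471.2 ± 28.9 TPM, differed by less than the spread of Tubb2a. All 11 nucleation genes were detected at a median of 13.8 TPM, led by Mzt1 (30.1 ± 1.46 TPM), Mzt2 (26.0 ± 0.66 TPM), Tubgcp4 (19.9 ± 0.55 TPM) and Tubgcp5 (14.6 ± 0.32 TPM), with Haus7 (2.77 ± 0.40 TPM) and Nedd1 (1.38 ± 0.18 TPM) lowest. Tubgcp6, a part of the gamma tubulin ring, was the 1 of these over 1.2-fold apart in the gene table, with 11.5 TPM in replicate 2 and 14.1 TPM in replicate 1. Its expected counts, 1659 in replicate 2 and 1594 in replicate 1, differed less than its TPM. In the second file Tubgcp2 was over 1.2-fold apart as well (0.32, against 0.16 in the gene table).

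Of 6 severing genes 5 were detected. Katnal1 (30.7 ± 1.92 TPM) and Spast (25.7 ± 0.30 TPM), whose human gene is mutated in spastic paraplegia, led, with Katna1 at 7.25 ± 0.21 TPM, Fign at 1.81 ± 0.13 TPM and Fignl1 at 0.37 ± 0.11 TPM. Fignl1 was over 1.2-fold higher in replicate 2 in the gene table, on 19 counts in replicate 2 and 16 in replicate 1. In the second file it differed by 0.15. Fign differed in TPM by 0.76 on the log2 scale in the second file and by -0.11 in the gene table. Its expected counts in the gene table, 235 in replicate 2 and 154 in replicate 1, were higher in replicate 2. Within the gene table its direction thus turned between TPM and counts. Over the 10 lists, 4 of 72 genes tested were over 1.2-fold apart in the gene table, 1 higher and 3 lower in replicate 2, where 7.45% of all genes were higher and 12.5% lower. None was over 1.5-fold apart in both files, and Tubgcp6 differed in TPM, though less in counts, by -0.63 in the second file and -0.29 in the gene table.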

How the data were processed

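Total RNA-seq of left cerebral cortex was measured in 2 libraries of 1 group, numbered from the labels. The deposited file lists give mm10 and GENCODE M21 as build and annotation. The gene table and the first transcript file hold the authors' expected counts, TPM and posterior estimates, per the file headers, under the column names that RSEM writes. The second transcript file holds the authors' estimated counts and TPM under kallisto's column names, per the file headers. The first transcript file also gives the authors' percent of each transcript within its gene; shares here were computed anew from TPM. Which aligner and versions were used is not given in the sources used here. The level of the deposited credibility intervals is not given either, and they were not used for calls. In the deposited gene table the effective length is the length less 99 bases. The second file takes off more. There, in replicate 2, Tuba1a-201 of 1803 bases has an effective length of 1463 bases and Tuba4a-203 of 782 bases one of 442 bases.

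Replicate 2 had 33263801 expected counts and replicate 1 had 30503944. Rows that carry a number and no gene name (26248) held 10 and 7 counts (3.0e-05% and 2.3e-05%) and were left out. Levels, sums, shares and ratios were computed from TPM, and gene values of the second file are sums over transcripts. Differences are log2 after adding 0.5 to TPM, a step that shrinks differences of low genes, and were taken where the mean expected count reached 10; a gene was called at over 1.2-fold and detected at 1 TPM in both libraries. Counting intervals are exact binomial 95% intervals of TMM-scaled counts and leave out all but counting error, as PCR copies cannot be told from separate molecules. Expected counts were rounded for the scaling factors of edgeR and DESeq2. Differences between files were centred on the median of all genes. Identical 100-base windows, on the strand of the transcript, coding identity and coding ends were computed from the annotated transcripts, from, for each gene, the most counted of the transcripts with annotated start and stop codons, which for Tuba4a is not the most counted transcript.

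The members and gene lists were chosen with earlier results of these data known. The rule of 20 percentage points for isoforms and the comparison of windows were added after values were seen. All members are named, with, per related list, up to 4 genes of highest and 2 of lowest TPM and any over 1.5-fold apart in both files; genes over 1.2-fold apart and pseudogenes named Gm were chosen after their values were seen. A gene of the severing list and the coding ends of the alpha genes are not reported here. Of 5 tyrosine cycle genes listed, Matcap1 had no match. With 2 libraries no likeness to other genes was computed. The steps were tested on simulated counts. Alternatives covered scaling, pseudocount, filter, file, unit and each library left out. Scripts ran in Python 3.11.15 (pandas 2.3.3, scipy 1.17.1, numpy 2.4.6; figures with matplotlib 3.10.9) and in R 4.3.3 with DESeq2 1.42.0 and edgeR 4.0.16.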

Additional observations from a re-analysis of the deposited data

How the results depend on the processing

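No paired analysis was possible because there is 1 group. The count of 9 members higher in replicate 2 was the same under all 8 alternatives run for it. Those that change the pseudocount or drop the filter could not alter it. A pseudocount leaves the sign of a difference as it is, and every member passes the filter. With gene sums of the second transcript file, 1 member (Tubb6) was over 1.2-fold apart between the libraries, and with counts scaled to the ERCC spike-in total 4 were (Tubb2a, Tubb2b, Tubb3 and Tubb5); with it the median log2 was 0.25 over the members and 0.15 over all genes. All genes over 1.2-fold apart numbered 3617 of 18136 tested, 5675 with spike-in scaling, 4112 with TMM and 4129 with DESeq2 factors. They numbered 4294 of 18124 in the second file and 6840 of 55536 with no filter on counts. With pseudocounts of 0.1 and 1 they numbered 4733 and 2694. Of 72 tubulin-related genes tested, 4 were over 1.2-fold apart, 24 with spike-in scaling and 7 with TMM or DESeq2 factors. Their number was 9 in the second file, 9 with a pseudocount of 0.1 and 1 with a pseudocount of 1.

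The alpha sum was 1873 TPM in the second file, 1002 as posterior mean and 1070 with every annotated gene with a Tuba symbol. It was 1297 TPM with genes that share windows, an alternative chosen after seeing the data. The beta sum was 2145 TPM in the second file. The log2 of alpha over beta was -0.20 in the second file and -0.55 on expected counts. It was -0.42 with every gene with a Tuba or Tubb symbol and -0.14 with genes that share windows, and stayed below 0 in each. Between files, members over 1.2-fold higher numbered 3 on TPM and 0 on counts, where 2475 and 951 of 18124 genes were. Members over 1.2-fold lower numbered 0 on TPM and 3 on counts, where 1768 and 1188 of those genes were. Tuba4a-201 made up 86.4% in the first file and 67.1% of counts, and Tubb5-201 94.4% and 86.3%, the share of counts being chosen after seeing the data. Leaving out a library moved the alpha sum between 1016 and 1048 TPM, the beta sum between 1374 and 1463 TPM, their log2 ratio between -0.48 and -0.43, Tuba4a-201 between 42.3% and 44.5%, and Tubb5-201 between 63.2% and 63.4%. No pair ratio changed sign under any alternative run. Depth limits Tubb6 and the minor transcripts, which rest on few counts.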
